A study of Rattus norvegicus with 9 samples.

Results

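The family of miR-148 and miR-152 consists of the mature miRNAs of 3 paralogous hairpins, miR-148a, miR-148b and miR-152. Its members were taken by name: every row called rno-miR-148a, rno-miR-148b or rno-miR-152 with any arm suffix, which gave 6 of the 726 rows measured. These were the 3p and the 5p arm of each hairpin: rno-miR-148a-3p, rno-miR-148a-5p, rno-miR-148b-3p, rno-miR-148b-5p, rno-miR-152-3p and rno-miR-152-5p, written without the species prefix from here on. Small RNA had been sequenced from wild-type rat cartilage progenitor cells, grown in primary culture from condylar cartilage. The study compared cells cultured to passage 9 (P9), the submitters' model of replicative senescence, and passage 3 cells placed under flow fluid shear stress (FFSS), their model of degeneration under mechanical load, each with passage 3 control cells (P3), with 3 libraries in each group. The labels give no age or sex of the animals, no strength or length of the shear stress, and do not say whether the libraries of a group came from separate cultures. Every p-value therefore rests on the spread among these 9 libraries, which could be technical.

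A miRNA is cut as a short duplex from a hairpin, and 1 strand of that duplex, the guide, is kept in an Argonaute protein while the other is mostly degraded. The guide finds target mRNAs through its seed, bases 2 to 8 from the 5′ end. The 3p arms of miR-148a, miR-148b and miR-152 are the usual guides of these hairpins. They are best known for repressing the maintenance DNA methyltransferase Dnmt1, which copies methylation marks at DNA replication. In human articular chondrocytes, raised miR-148a has been linked to more type II collagen and less hypertrophy. mRNAs and proteins, those of Dnmt1 included, were not analysed here.

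The sequences show what the 3p paralogs share and where they part, and so which reads can be told apart. They are RefSeq sequences on the rat build GRCr8, found for 5 of the 6 members, with the seed in capitals.
miR-148a-3p: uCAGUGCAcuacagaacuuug
miR-148b-3p: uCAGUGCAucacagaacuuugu
miR-152-3p: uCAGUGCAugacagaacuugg
miR-148a-5p: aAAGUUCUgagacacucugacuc
miR-152-5p: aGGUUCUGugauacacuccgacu
All 3 of the 3p arms carry the seed CAGUGCA. Counted from 1 at the 5′ end over 21 bases, miR-148b-3p differs from miR-148a-3p by the 2 substitutions C9U and U10C (base of miR-148a-3p first). miR-152-3p differs from miR-148a-3p by the 3 substitutions C9U, U10G and U20G, and from miR-148b-3p by C10G and U20G (base of miR-148b-3p first). miR-148a-5p and miR-152-5p do not share a seed with each other. The sources used here do not say how reads with mismatches were counted, so a small leak from the abundant miR-148a-3p into its paralogs cannot be told apart from their own reads. No other row had counts near-identical to those of a member.

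The hairpins below show where the annotated mature arms (capitals) lie in the precursor.
Mir148a: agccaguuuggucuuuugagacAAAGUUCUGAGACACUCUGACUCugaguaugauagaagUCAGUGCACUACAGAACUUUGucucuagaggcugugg
Mir148b: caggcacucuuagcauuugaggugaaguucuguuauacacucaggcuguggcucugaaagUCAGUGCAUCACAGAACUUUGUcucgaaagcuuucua
Mir148a lies at chr4:81664431-81664527 on the minus strand of GRCr8, where no other RefSeq gene overlaps it. Mir148b lies at chr7:136299870-136299966 on the plus strand and overlaps Copz1, and Mir152 lies on the plus strand of chromosome 10 and overlaps Copz2. Copz1 and Copz2 are paralogs that encode the zeta subunit of the coat of Golgi transport vesicles.

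The libraries held 2878910 to 8862560 counted miRNA reads, the fewest in FFSS replicate 1. Levels are given as TPM, which in this table is the count scaled to the library total with no length term, so that a level is a share of the library. P9 replicate 3 stood apart: across the 439 tested rows its log CPM correlated at 0.947 and 0.955 with the other P9 libraries, which correlated at 0.992, and at 0.961 with P3 replicate 2. FFSS replicate 1 correlated at 0.955 and 0.961 with the other FFSS libraries. The cartilage miRNAs miR-140 and miR-455 (4 arms) summed to 2590.0 to 3847 TPM in P9, 6077 to 7202 TPM in FFSS and 4150.4 to 7370.1 TPM in P3, so that P9 lay below both other groups. The median log2 fold change of these arms was -0.61 in P9 against P3, where edgeR called 0 of 4 (2 at an unadjusted p under 0.05; DESeq2 called 1). Each list of markers of other cell types summed to less than the cartilage miRNAs in every library, but the sums were not uniform. In P9 replicate 3 the nervous system list reached 1546 TPM against 2590.0 TPM for cartilage. The 7 blood miRNAs summed to 73.1 to 311 TPM in P9, 171 to 603 TPM in FFSS and 79.5 to 160.05 TPM in P3. The 7 muscle miRNAs reached 583 TPM in P9 replicate 3 and 575 TPM in FFSS replicate 1, against 212 to 251 TPM in P3. The 2 liver miRNAs summed to 3.43 to 22.9 TPM in P9, 15.5 to 51.4 TPM in FFSS and 10.1 to 11.7 TPM in P3. The 6 epithelial miRNAs summed to 17.2 to 32.7 TPM in P9, 32.3 to 82.7 TPM in FFSS and 28.3 to 29.6 TPM in P3. For the 2 endothelial miRNAs the sums were 275 to 491 TPM in P9, 556 to 695 TPM in FFSS and 386 to 406 TPM in P3. Every FFSS library thus lay above every P3 library in the sums for blood, muscle, liver, epithelium and endothelium, with FFSS replicate 1 the highest FFSS library in each. The 4 miRNAs of the nervous system summed to 618 to 1546 TPM in P9, 565 to 1373 TPM in FFSS and 534 to 1168 TPM in P3. Within P9, replicate 3 was the highest library for blood, muscle, liver, endothelium and the nervous system. It was the lowest P9 library for cartilage and epithelium. No listed marker was at 0 in every library. Their part in the results below was not tested.

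miR-148a-3p dominated the family and ranked among the 3 most abundant of the 726 rows in every library. It stood at 56168, 88006 and 155817 TPM in P9, at 216124, 148637 and 189309 TPM in FFSS, and at 131881, 191894 and 141929 TPM in P3. It was the most abundant row in all 3 FFSS libraries. Within P9 the libraries differed 2.77-fold, the highest being replicate 3, while within FFSS and within P3 they differed 1.45-fold and 1.46-fold. The groups overlapped in all 3 comparisons, and none passed edgeR's quasi-likelihood test. The log2 fold changes were -0.55 for P9 against P3 (SE 0.38, adjusted p = 0.506), 0.19 for FFSS against P3 (SE 0.38, adjusted p = 0.746) and -0.74 for P9 against FFSS (SE 0.38, adjusted p = 0.143). Without P9 replicate 3, miR-148a-3p was lower in P9 than in P3 (log2 fold change -1.09, SE 0.33, edgeR adjusted p = 0.0469), and P9 against FFSS was -1.24 (SE 0.34, adjusted p = 0.00801). That fit called 25 rows lower in P9 than in P3 and 80 lower in P9 than in FFSS. With all 9 libraries 15 and 52 rows were called. Neither comparison passed for miR-148a-3p in the other 8 fits that left out 1 library. A lower level in a bulk library can mean fewer cells of a type or less of the miRNA per cell. As a level is a share of the library, it can also mean more reads of other rows. These cannot be told apart here.

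miR-152-3p, the second 3p arm by reads, had 6776 TPM, 4683 TPM and 3446 TPM in P9, 8438 TPM, 10386 TPM and 8907 TPM in FFSS, and 7333 TPM, 5415 TPM and 7979 TPM in P3. The FFSS libraries lay above all libraries of both other groups, while P9 and P3 overlapped. Such separation was found for 18.9% of all tested rows with FFSS above P3 and for 19.8% with P9 below FFSS. miR-152-3p was lower in P9 than in FFSS (log2 fold change -0.83, SE 0.26, edgeR adjusted p = 0.0246), a direction in which 11.8% of the 439 rows were called and in which the summed cartilage miRNAs also lay. Against P3 it passed neither in P9 (-0.44, SE 0.25, adjusted p = 0.451) nor in FFSS (0.39, SE 0.25, adjusted p = 0.271). Between P9 and FFSS, 6 of the 9 fits that left out 1 library lost the call: without P9 replicate 2 (adjusted p = 0.110) or 3 (0.0725), without FFSS replicate 1 (0.0546) or 2 (0.0964), and without P3 replicate 1 (0.0725) or 3 (0.0525). It was also lost with no filter on low counts (adjusted p = 0.0777) and in a fit of P9 and FFSS alone (0.0630).

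miR-148b-3p had the fewest reads of the 3p arms. It stood at 965 TPM, 813 TPM and 449 TPM in P9, at 634 TPM, 1223 TPM and 1025 TPM in FFSS, and at 1143 TPM, 830 TPM and 1063 TPM in P3. All 3 groups overlapped one another. The lowest libraries were P9 replicate 3 and FFSS replicate 1. Against P3 its log2 fold change was -0.40 in P9 and -0.12 in FFSS (SE 0.31 each, edgeR adjusted p = 0.565 and 0.809). Between P9 and FFSS it was -0.29 (SE 0.31, edgeR adjusted p = 0.497).

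**Figure D1:**
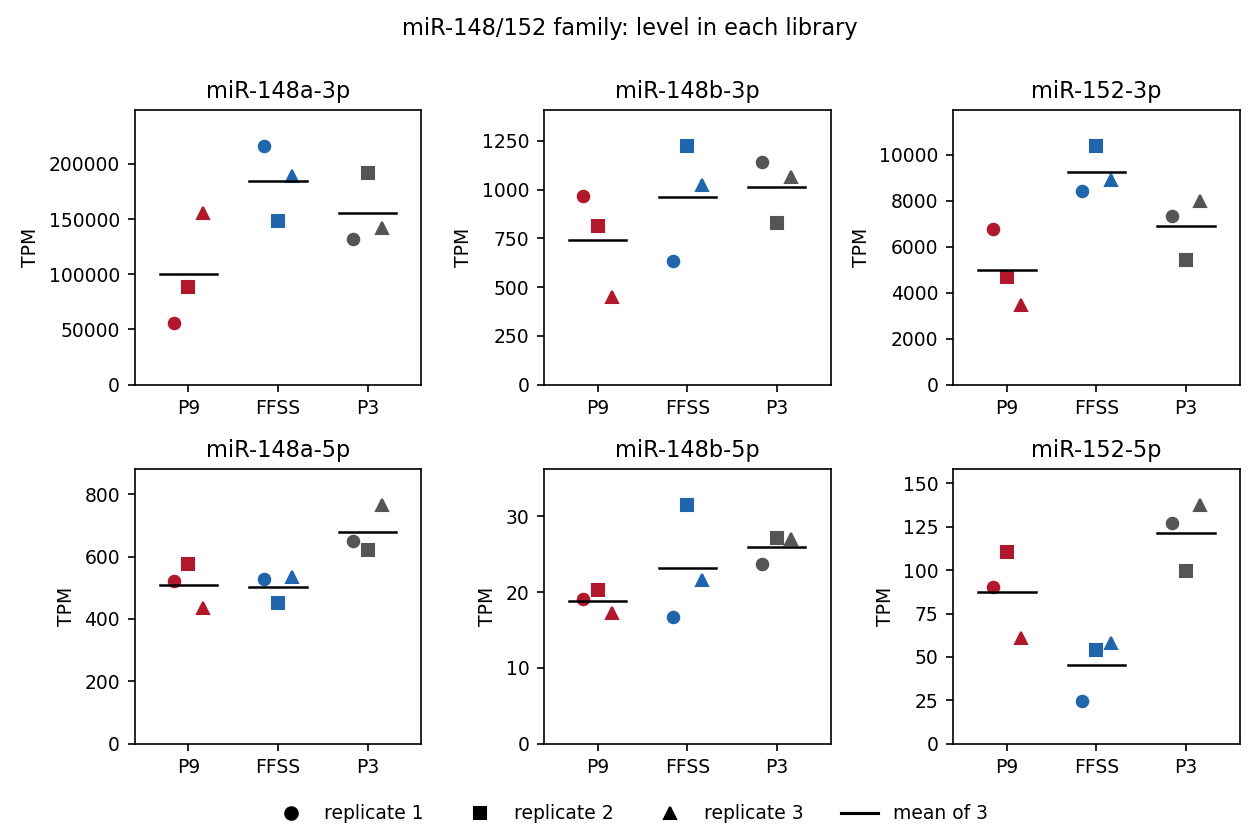
Level of each of the 6 family members in the 9 libraries, in TPM on linear axes that start at 0. Points are libraries, with a shape for each replicate number, and lines are group means; the miR-152-5p points of FFSS lie below every P3 and P9 point, while the miR-152-3p points of FFSS lie above them.

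Of the 5p arms, the strands mostly discarded from the duplex, miR-152-5p fell under shear stress. It had 24.3 TPM, 54.1 TPM and 57.7 TPM in FFSS, against 127 TPM, 99.3 TPM and 137 TPM in P3. The groups did not overlap, and 22.6% of all tested rows had every FFSS library below every P3 library. The FFSS mean was 45.4 ± 18.3 TPM against 121 ± 19.7 TPM in P3 (SD, n = 3 each). The log2 fold change was -1.48 (SE 0.35, edgeR adjusted p = 0.0153), which is a level 2.79-fold lower in FFSS. Of the 439 rows, 13.7% were called lower in this comparison. Across the 9 fits that left out 1 library the value stayed between -1.76 and -1.32, with an adjusted p of at most 0.0431, and over the 11 other settings the adjusted p was at most 0.0276. FFSS replicate 1, the shallowest library and the one highest in the blood, liver, epithelial and endothelial markers, all of which summed higher in every FFSS than in every P3 library, was the lowest of the group, with 70 reads. Without it the log2 fold change was -1.32 (SE 0.32, edgeR adjusted p = 0.0177).

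In P9 miR-152-5p stood at 90.4 TPM, 111 TPM and 60.9 TPM, and the groups overlapped with P3 (log2 fold change -0.41, SE 0.35, edgeR adjusted p = 0.596). Every P9 library lay above every FFSS library, as in 23% of all tested rows, and miR-152-5p was higher in P9 than in FFSS (1.07, SE 0.35, edgeR adjusted p = 0.0336). In that direction 22.6% of the rows were called. Leaving out P9 replicate 2 (edgeR adjusted p = 0.0898) or FFSS replicate 3 (0.0664) ended the call. Scaling by library size alone (0.0638), limma-trend on log2(TPM + 1) (0.0565) and a fit of P9 and FFSS alone (0.0613) also ended it.

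miR-148a-5p had 522 TPM, 576 TPM and 434 TPM in P9, 527 TPM, 451 TPM and 533 TPM in FFSS, and 650 TPM, 621 TPM and 765 TPM in P3. P9 and FFSS both lay wholly below P3, yet neither passed the test. The log2 fold change was -0.36 in P9 (SE 0.27, edgeR adjusted p = 0.546) and -0.48 in FFSS (SE 0.27, edgeR adjusted p = 0.210). Among all 439 tested rows, 14.1% had all P9 libraries below all P3 libraries, and 22.6% had all FFSS libraries below them, so such separation was common. In P9 against FFSS its log2 fold change was 0.12 (SE 0.27, edgeR adjusted p = 0.739).

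miR-148b-5p was the rarest member, with 19.04 TPM, 20.3 TPM and 17.2 TPM in P9, 16.7 TPM, 31.5 TPM and 21.6 TPM in FFSS, and 23.7 TPM, 27.1 TPM and 27.0 TPM in P3. The P9 libraries lay below P3, as in 14.1% of all tested rows, and the FFSS libraries spanned both other groups. Its reads numbered 48 to 239 per library. Against P3 the log2 fold change was -0.41 in P9 and -0.20 in FFSS (SE 0.34 each, edgeR adjusted p = 0.596 and 0.697). Between P9 and FFSS it was -0.21 (SE 0.34, edgeR adjusted p = 0.639).

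All 6 members passed the filter on low counts, and their calls can be set against the table. In P9 against P3, 0 of the 6 members passed edgeR, against 7.29% of the 439 rows. An unadjusted p under 0.05 was found for 0 members by edgeR and for 1 by limma-trend, and DESeq2, limma-voom and limma-trend called 0. In FFSS against P3, 1 of 6 passed, miR-152-5p, where 20.5% of all rows did. In P9 against FFSS, 2 of 6 passed, both arms of miR-152 and in opposite directions, where 34.4% of all rows did. These shares do not set the family apart from the table. All 6 values were negative in P9 against P3, between -0.55 and -0.36, where the median of all rows was 0.06. None passed (edgeR adjusted p of 0.451 to 0.596), and the members share libraries and hairpins, so the 6 signs are not independent. The share of all rows with a negative value was not counted. The comparisons with P3 share the same 3 control libraries.

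**Figure D2:**
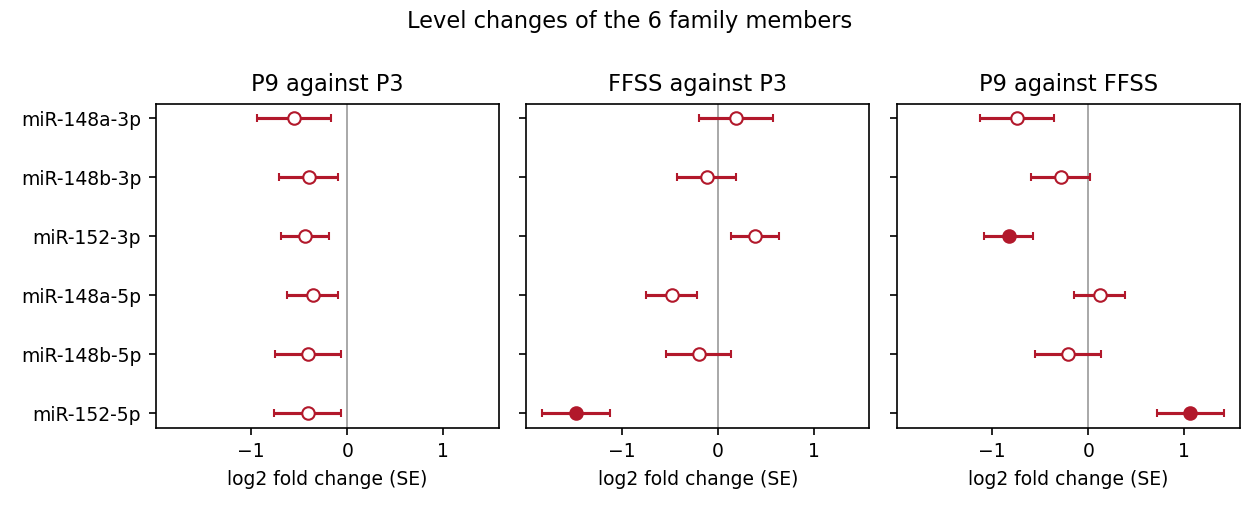
Log2 fold change of each member in the 3 comparisons, with bars of 1 SE from edgeR; filled points have an adjusted p under 0.05 over 439 rows. miR-152-5p is filled in FFSS against P3 at -1.48, and the 2 arms of miR-152 are filled on opposite sides of 0 in P9 against FFSS.

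The ratio of the arms within a hairpin compares reads inside 1 library and does not depend on scaling between libraries. The 5p arm of miR-152 held 1.32%, 2.31% and 1.74% of the hairpin's reads in P9, 0.287%, 0.518% and 0.644% in FFSS, and 1.70%, 1.80% and 1.69% in P3. The FFSS libraries were all below both other groups, and the P9 libraries lay around the P3 libraries. Among all hairpins, 29.2% had a lower ratio in every FFSS library than in every P3 library, and 19.1% a higher one in every P9 than in every FFSS library. The 95% Wilson intervals, which cover counting error only, ran from 0.228% to 0.363% in FFSS replicate 1 and from 0.565% to 0.734% in FFSS replicate 3, the highest of that group. The lowest bound in P3 was 1.60%.

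On the log2 scale the miR-152 ratio of 5p to 3p averaged -7.76 ± 0.60 in FFSS and -5.83 ± 0.05 in P3 (SD, n = 3 each). The change was -1.93 (SE 0.39, limma adjusted p = 0.0144 over 89 hairpins), a 3.82-fold difference. Of the 89 hairpins whose arms both averaged 20 counts or more, 4.49% passed, and 3.37% did so as lower in FFSS. They were the 4 hairpins of miR-376b, miR-152, miR-362 and miR-34c. The other 3 were named after their values were seen. miR-152 ranked 3 by the size of the change and 2 by p. Leaving out P3 replicate 2 ended the call (change -1.90, limma adjusted p = 0.0774), and it held in the other 8 fits that left out 1 library. P9 against FFSS gave 1.94 (SE 0.39, limma adjusted p = 0.0156), where 7.87% of the hairpins passed and 5.62% were called higher. That call was lost without P9 replicate 2 (1.73, limma adjusted p = 0.109) or FFSS replicate 1 (1.61, limma adjusted p = 0.0619). P9 against P3 gave 0.01 (SE 0.39, limma adjusted p = 0.992).

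**Figure D3:**
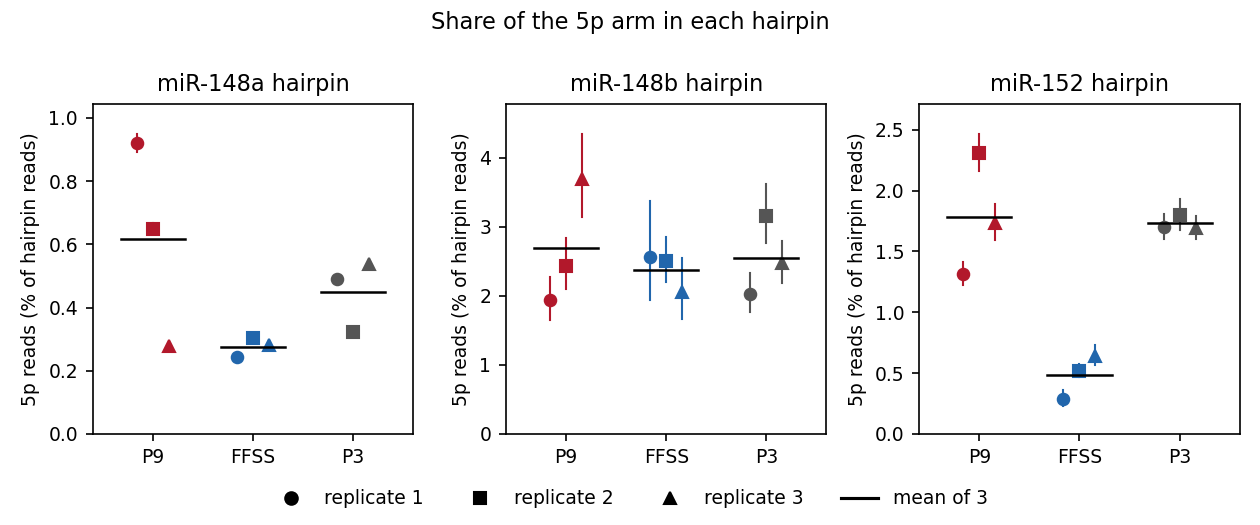
Share of 5p reads among all reads of each hairpin in the 9 libraries, in percent on axes that start at 0, with 95% Wilson intervals as vertical bars and group means as lines. For miR-152 the FFSS libraries lie between 0.287% and 0.644%, below all P9 and P3 libraries.

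The hairpins of miR-148b and miR-148a did not pass in any comparison with all 9 libraries. The miR-148b hairpin had 1.94%, 2.44% and 3.70% of its reads on the 5p arm in P9, 2.56%, 2.51% and 2.06% in FFSS, and 2.03%, 3.16% and 2.47% in P3. The groups overlapped, and the change was -0.08 in FFSS against P3 (SE 0.37, limma adjusted p = 0.861) and 0.05 in P9 against P3 (SE 0.37, limma adjusted p = 0.989). The difference in change between the hairpins was not tested.

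The miR-148a hairpin was the most one-sided of the 3, with rank 3 among the 89 hairpins from the 3p end, where miR-152 had rank 9 and miR-148b rank 12. Its 5p arm held 0.920%, 0.650% and 0.278% of the reads in P9, 0.243%, 0.302% and 0.281% in FFSS, and 0.490%, 0.323% and 0.536% in P3. The FFSS libraries lay below the P3 libraries, but the change of -0.68 did not pass (SE 0.45, limma adjusted p = 0.311). P9 replicates 1 and 2 lay above every other library, and P9 replicate 3 lay among the FFSS libraries. P9 against P3 gave 0.33 (SE 0.45, limma adjusted p = 0.989), and P9 against FFSS gave 1.01 (SE 0.45, limma adjusted p = 0.166). Without P9 replicate 3, P9 was higher than FFSS (change 1.502, SE 0.37, limma adjusted p = 0.00664). The other 8 fits that left out 1 library did not pass (limma adjusted p up to 0.386). Over these 9 fits, 0 to 24 hairpins were called higher in P9 than in FFSS, against 5 with all libraries.

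Across all 89 hairpins, the median change of log2(5p/3p) was -0.25 in FFSS and -0.04 in P9, each against P3. Among the 38 hairpins with more 3p than 5p reads, to which the family belongs, the median was -0.23 in FFSS, and 24 of the 38 were negative. miR-152 was the only one of these 38 that passed in FFSS against P3 in the fit of all 9 libraries. In that fit 28 of the 89 hairpins had an unadjusted p under 0.05. A fit of both groups alone called 17 of all hairpins lower in FFSS and 6 higher, so the count of calls depended on the setting. In P9 against P3 limma called 0% of the 89 hairpins, with 2 at an unadjusted p under 0.05.

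**Figure D4:**
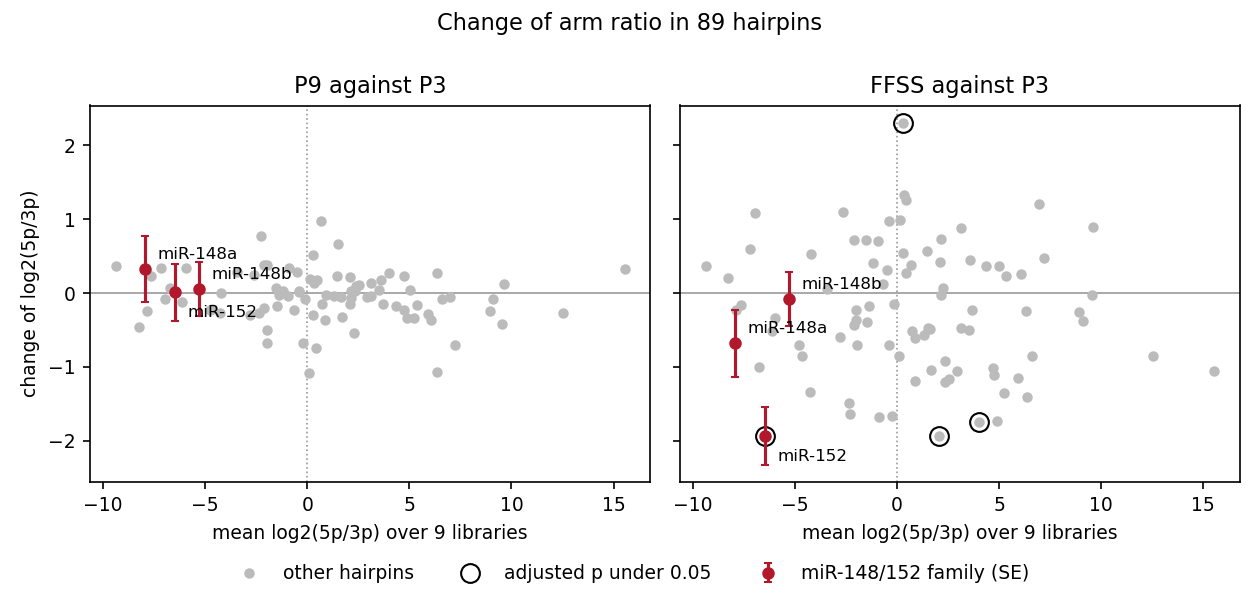
Change of log2(5p/3p) against the mean of this ratio over the 9 libraries, for 89 hairpins, in P9 against P3 and in FFSS against P3. Red points are the 3 hairpins of the family with bars of 1 SE, grey points are the others, and circles mark a limma adjusted p under 0.05; in FFSS against P3, miR-152 is circled at -1.93 while miR-148a and miR-148b are not.

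The 3p paralogs carry 1 seed, so their summed reads give the total for that seed among the rows matched to a mature sequence. The sum was 6.39%, 9.35% and 16.0% of all reads in P9, 22.5%, 16.0% and 19.9% in FFSS, and 14.0%, 19.8% and 15.1% in P3. No other matched row carried the seed. Among 486 seeds it had the most reads in all 3 FFSS libraries and P3 replicate 2, and had rank 2 in P9 replicate 3 and rank 4 in both other P9 libraries. The sum averaged 105707 ± 49054 TPM in P9, 194894 ± 32692 TPM in FFSS and 163156 ± 30758 TPM in P3 (SD, n = 3 each). P9 and FFSS did not overlap (two-sided exact permutation p = 0.10, the smallest that 3 against 3 libraries can give). The gap was narrow, with 159712 TPM in P9 replicate 3 and 160246 TPM in FFSS replicate 2. Of single tested rows, 19.8% had P9 wholly below FFSS. The exact permutation p was 0.30 for P9 against P3 and 0.20 for FFSS against P3.

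miR-148a-3p supplied 87.9%, 94.1% and 97.6% of the family's 3p reads in P9, 96.0%, 92.8% and 95.02% in FFSS, and 94.0%, 96.8% and 94.0% in P3. miR-152-3p supplied 10.6%, 5.01% and 2.16% in P9, 3.75%, 6.48% and 4.47% in FFSS, and 5.22%, 2.73% and 5.29% in P3. miR-148b-3p supplied 0.281% to 1.51% of them over the 9 libraries. All groups overlapped for all 3 paralogs, and the widest spread was within P9. The 95% Wilson intervals of the miR-148a-3p share were at most 0.183 percentage points wide, and they cover counting error only. The exact permutation p was between 0.50 and 0.90 for each paralog and comparison.

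Ratios between paralogs were compared by limma over 114 pairs of rows that share a seed, which overlap in their members. Of these pairs, 14.9% passed in P9 against P3, 22.8% in FFSS against P3 and 29.8% in P9 against FFSS, and none of the family's 3 pairs did in any of them. Without adjustment 1 pair had a p under 0.05 in both comparisons with FFSS, and 0 did in P9 against P3. That pair was miR-152-3p over miR-148b-3p. It stood at 7.02, 5.76 and 7.68 in P9, 13.3, 8.49 and 8.69 in FFSS, and 6.42, 6.52 and 7.50 in P3, so that the FFSS libraries lay above the others. Of all pairs, 18.4% had FFSS wholly above P3 and 18.4% had P9 wholly below FFSS. The log2 change was 0.55 in FFSS against P3 (SE 0.22, limma adjusted p = 0.112) and -0.55 in P9 against FFSS (SE 0.22, limma adjusted p = 0.0826). In P9 against P3 it was -0.01 (SE 0.22).

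The ratios to miR-148a-3p had larger errors and did not pass. For miR-152-3p over miR-148a-3p the log2 ratio differed from P3 by 0.23 in P9 and by 0.18 in FFSS (SE 0.59 each, limma adjusted p = 0.935 and 0.822). For miR-148b-3p over miR-148a-3p it differed from P3 by 0.23 in P9 and by -0.37 in FFSS (SE 0.66 each, limma adjusted p = 0.935 and 0.696). In P9 replicate 1 there were 58.2 miR-148a-3p reads for each miR-148b-3p read, and in P9 replicate 3 there were 347. In FFSS replicates 1 and 2 there were 341 and 122, and P3 held 115 to 231.

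**Figure D5:**
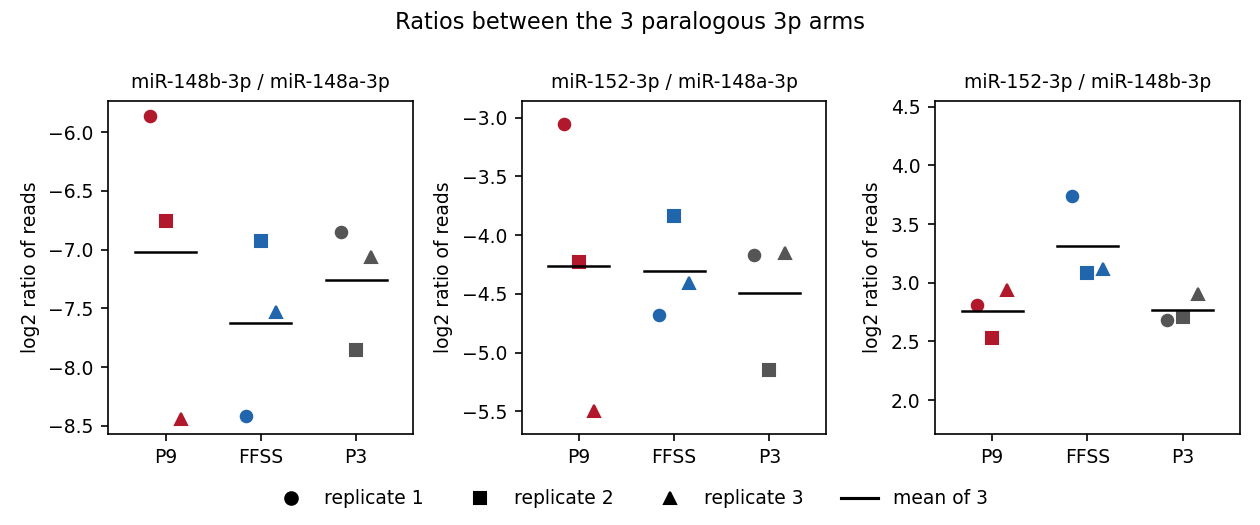
Log2 ratio of reads between the 3p arms in the 9 libraries, with the same axis length in each panel and group means as lines. The ratios to miR-148a-3p spread most within P9, whereas miR-152-3p over miR-148b-3p varied little in P9 and P3 and was above both in FFSS. That pair did not pass in FFSS against P3 (limma adjusted p = 0.112) or in P9 against FFSS (limma adjusted p = 0.0826).

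The 5p reads of the family were divided differently. miR-148a-5p supplied 81.5% to 84.8% of them in P9, 84.0% to 92.8% in FFSS and 81.2% to 83.1% in P3. miR-152-5p supplied 11.9% to 15.7% in P9, 4.28% to 10.1% in FFSS and 13.3% to 15.9% in P3, and its FFSS libraries did not overlap with either other group. miR-148b-5p supplied the rest. These shares restate the fall of miR-152-5p and were not tested.

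Likeness of pattern between rows was measured as the root mean square difference of log2 CPM, each row centred on its own mean, over the 9 libraries and among 180 rows of at least 50 TPM on average. From miR-148a-3p, miR-152-3p lay at 0.67 (rank 64 of 180) and miR-148b-3p at 0.79 (rank 93). miR-148b-3p and miR-152-3p lay closer to each other, 0.33 apart, with miR-152-3p at rank 19 from miR-148b-3p and miR-148b-3p at rank 20 from miR-152-3p. The nearest rows to miR-148a-3p outside the family were miR-672-5p at 0.25, miR-30e-3p at 0.30 and miR-126a-3p at 0.33. miR-126a-3p is also among the endothelial miRNAs summed above and among the methyltransferase miRNAs read below. Nearest to miR-148b-3p were miR-186-5p and miR-27b-3p at 0.17 and miR-199a-3p at 0.18. Nearest to miR-152-3p were miR-29b-3p and miR-3587 at 0.16, whose counts were near-identical to each other, followed by miR-125b-2-3p at 0.20.

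Other miRNAs known to repress DNA methyltransferases were read beside the family. Of 9 such miRNAs, 1 rose in P9 against P3, where 3.87% of all rows were called higher, and 0 fell, where 3.42% were called lower. This was miR-143-3p, reported to repress Dnmt3a and abundant in smooth muscle and fibroblasts, at 154434 ± 22304 TPM in P9 and 62078 ± 6073 TPM in P3 (SD, n = 3 each; log2 fold change 1.35, SE 0.24, edgeR adjusted p = 0.00348). miR-29b-3p and miR-29c-3p, of the family that represses Dnmt3a and Dnmt3b, had log2 fold changes of -0.46 and 0.23, and miR-101b-3p had -0.29 (edgeR adjusted p = 0.470, 0.837 and 0.772). The median of the 9 was -0.01 in P9, where the median of all tested rows was 0.06.

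In FFSS against P3, 0 of the 9 passed edgeR, where 20.5% of all rows did, and DESeq2, limma-voom and an unadjusted p under 0.05 also gave 0. The 4 with the smallest p were miR-126a-3p at 0.61, miR-29c-3p at 0.76, miR-342-3p at 0.52 and miR-29b-3p at 0.28 (edgeR adjusted p = 0.192, 0.192, 0.285 and 0.481). The median of the 9 was 0.21, where the median of all tested rows was 0.02. In P9 against FFSS, where 22.6% of all rows were called higher, edgeR called 1 of the 9, miR-143-3p at 1.48 (SE 0.24, edgeR adjusted p = 7.24e-04), while DESeq2 called 2 and limma-trend 3 in either direction. The miR-130 and miR-301 family, whose seed holds AGUGCA shifted by 1 base, had 3 matched rows. Of these miR-130a-3p was the most abundant, with 35.2 TPM, 23.5 TPM and 14.1 TPM in P9, 53.8 TPM, 45.3 TPM and 44.1 TPM in FFSS and 23.7 TPM, 20.2 TPM and 26.9 TPM in P3, so that its FFSS libraries lay above the others. Of all tested rows, 18.9% had FFSS above P3 and 19.8% had P9 below FFSS in this way.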

How the data were processed

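Per the file headers, the authors deposited a read count and a TPM value for each of 726 miRNA rows in 9 libraries. The deposited TPM equalled the count divided by the library total and scaled alike, with a largest difference of 4.85e-05. Per the submitters' processing notes, Bowtie and the build Rnor_6.0 were used. For the counting program and the miRNA annotation, nothing was given in the sources.

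Counts were tested with edgeR 4.0.16 (filterByExpr, which kept 439 rows, TMM, robust quasi-likelihood test, all 9 libraries in 1 fit) in R 4.3.3. Arm ratios and ratios of rows sharing bases 2 to 8 were log2 ratios of counts with 0.5 added, fitted with limma 3.58.1 where both rows had a mean of at least 20 counts. P-values are two-sided and Benjamini-Hochberg adjusted over all rows, hairpins or pairs, and called under 0.05. Shares and summed levels had exact permutation tests (scipy 1.17.1). DESeq2 1.42.0 was an alternative. RefSeq sequences matched 578 of 635 annotated rows. The scripts were tested on simulated data. Members and lists were chosen with earlier results of these data known. Rows named beyond the members were the 3 most alike to each 3p member and up to 4 methyltransferase miRNAs with the smallest p per comparison with P3. The most abundant row with the offset seed was also named, and 3 other hairpins with a called arm ratio were named after their values were seen.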

Additional observations from a re-analysis of the deposited data

How the results depend on the processing

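The replicate numbers gave no sign of paired libraries, though 3 libraries per group cannot settle this. The correlations of deviations from the group means between same-numbered libraries ran from -0.42 to 0.14. Of these, 1 of 9 was over 0.1, and 2 of 9 were the best for their number. With the replicate number as a block no call of the family's own members, hairpins or pairs changed, and the rows called higher in FFSS against P3 numbered 9. That count was 15 with no filter and 51 in a fit of both groups alone. With a mean of at least 50 counts, 39 rows were lower in FFSS than in P3, and in a fit of both groups alone 28 were lower in P9 than in FFSS. In P9 against FFSS, miR-148a-3p passed when scaled by library size only (-0.89) and by limma-trend (-0.99). miR-152-3p missed the threshold with no filter (-0.70) and in a fit of both groups alone (-0.79). miR-152-5p missed it scaled by library size only (0.94), by limma-trend (0.98) and in a fit of both groups alone (1.098). The causes were not tested.

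Leaving out 1 library in turn moved the log2 fold change of miR-148a-3p between -1.09 and -0.27 in P9 against P3, between -0.12 and 0.40 in FFSS against P3 and between -1.24 and -0.35 in P9 against FFSS. In P9 against FFSS the range was -0.36 to 0.044 for miR-148b-3p, -0.93 to -0.59 for miR-152-3p, -0.33 to 0.19 for miR-148b-5p and 0.92 to 1.34 for miR-152-5p. For the arm ratio of miR-148a it was -0.048 to 0.82 in P9 against P3 and 0.63 to 1.502 in P9 against FFSS. For that of miR-148b it was -0.21 to 0.27 in P9 against P3, -0.24 to 0.087 in FFSS against P3 and -0.13 to 0.35 in P9 against FFSS. For that of miR-152 it was -0.20 to 0.21, -2.18 to -1.60 and 1.61 to 2.19 in the same order. The ratio of miR-148b-3p to miR-148a-3p ranged from -0.34 to 0.94 in P9 and from -0.72 to 0.027 in FFSS, each against P3. That of miR-152-3p to miR-148a-3p ranged from -0.38 to 0.85, from -0.15 to 0.37 and, in P9 against FFSS, from -0.56 to 0.67. That of miR-152-3p to miR-148b-3p ranged from -0.10 to 0.11 in P9 against P3.

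The counts of rows called depended on single libraries. Without P9 replicate 3 they were 26 higher and 25 lower in P9 than in P3, 53 higher and 94 lower in FFSS than in P3, and 80 lower in P9 than in FFSS. Their lowest values were 8 (without P3 replicate 1), 7 (P3 replicate 3), 3 (P3 replicate 1), 32 (FFSS replicate 3) and 28 (P9 replicate 2). Hairpins called in FFSS against P3 numbered 1 higher and 3 lower, against 2 and 7 with a pseudocount of 5 and 6 and 17 in a fit of both groups alone. In P9 against FFSS they numbered 5 higher and 2 lower, against 3 and 1 both with the block and in a fit without P3, and leaving out 1 library gave 0 to 24 and 0 to 8. Called pairs in FFSS against P3 numbered 12 higher and 14 lower, against 4 and 3 with the block. Apart from leaving out 1 library, settings not named above left every call of the family's members, hairpins and pairs in place. Among the 9 fits that left out 1 library, the P9 against FFSS call held in 3 for miR-152-3p and in 7 for miR-152-5p. The miR-152 arm ratio call held in 8 for FFSS against P3 and in 7 for P9 against FFSS. Without P9 replicate 3, miR-148a-3p and the miR-148a arm ratio gained calls. The fall of miR-152-5p in FFSS against P3 passed in every setting and in all 9 of these fits. The fewest reads were in FFSS replicate 1, with 70 of miR-152-5p and 48 of miR-148b-5p.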
